A study of Mus musculus with 16 samples.

Results

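The 10 genes described here, all of the WNT pathway, were followed through every library of a mouse embryonic stem (ES) cell RNA-seq study: the ligand gene Wnt3, the feedback targets Axin2, Sp5 and Nkd1, the TCF/LEF transcription factor genes Tcf7, Tcf7l1, Tcf7l2 and Lef1, and the secreted inhibitor genes Sfrp1 and Dkk1. They were taken by name, 10 of 24394 gene names, and all 10 had a row in each of the 3 deposited tables. The study comprised 16 libraries of E14Tg2a.IV ES cells, strain C57BL/6 per the labels, in 8 groups of 2, grown without feeders in serum with leukemia inhibitory factor. The Pml table held wild-type and Pml KO cells, both untreated. The arsenite table held wild-type cells that were untreated or had received sodium arsenite at 200 µM for 2 h. The Trim33 table held cells labelled wild type or Trim33 KO, each given activin A at 50 ng/ml or the activin receptor kinase inhibitor SB431542 at 10 µM for 2 h. That table had no untreated cells. How either knockout was made, whether a knockout line is 1 clone, and whether replicate libraries stand for separate cultures is not said in the labels. The p-values therefore measure the spread between these libraries, which may be technical.

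In the canonical WNT pathway a secreted ligand binds a Frizzled receptor with an LRP co-receptor and stops the destruction complex from degrading beta-catenin, which then enters the nucleus and acts with TCF/LEF proteins on target genes. Several targets feed back on the pathway: Axin2 encodes a scaffold of the destruction complex, Nkd1 a protein that binds Dishevelled and dampens the signal, and Sp5 a zinc-finger transcription factor. In ES cells TCF7L1 acts mainly as a repressor of target and pluripotency genes, and beta-catenin supports self-renewal by relieving that repression. In the embryo Wnt3 is needed for the primitive streak, where it acts beside Nodal, a ligand of the pathway that activin A stimulates and SB431542 blocks through SMAD2 and SMAD3.

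Promoter sequence is shown for a pair of members that were low together in the Trim33 knockout with activin A, Sp5 and Lef1, and for Axin2, the textbook target, whose levels went otherwise. Each sequence holds the 250 bases before a RefSeq transcription start (GRCm38.p6, sequence from RefSeq), written 5′ to 3′ on the plus strand. Capitals mark the TCF/LEF core CTTTGA, or TCAAAG on the other strand, and the SMAD box CAGAC, or GTCTG on the other strand. The Sp5 window lies at chr2:70474673-70474922, the Lef1 window at chr3:131156044-131156293 within the gene, and the Axin2 window at chr11:108920099-108920348.
Sp5: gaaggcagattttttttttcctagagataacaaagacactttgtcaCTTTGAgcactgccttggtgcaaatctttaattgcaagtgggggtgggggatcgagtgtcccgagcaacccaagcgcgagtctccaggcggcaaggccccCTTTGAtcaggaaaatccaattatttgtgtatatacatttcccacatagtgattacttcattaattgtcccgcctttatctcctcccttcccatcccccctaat
Lef1: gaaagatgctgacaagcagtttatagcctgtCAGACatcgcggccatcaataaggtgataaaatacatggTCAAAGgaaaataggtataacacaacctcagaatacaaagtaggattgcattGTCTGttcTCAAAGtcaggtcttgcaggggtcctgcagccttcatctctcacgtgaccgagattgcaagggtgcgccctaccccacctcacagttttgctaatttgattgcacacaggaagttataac
Axin2: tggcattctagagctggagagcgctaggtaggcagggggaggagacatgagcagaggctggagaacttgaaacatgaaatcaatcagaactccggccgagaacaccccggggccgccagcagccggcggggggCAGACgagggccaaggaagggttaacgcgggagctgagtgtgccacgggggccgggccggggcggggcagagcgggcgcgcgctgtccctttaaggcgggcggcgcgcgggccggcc
The Sp5 window holds 2 TCF/LEF cores, whose first bases lie 204 and 104 bases before the start, and no SMAD box. This Lef1 window, an internal one, is the only 1 of 4 listed for the gene that holds a core, and both windows at the gene's 5′ end hold none. It has 2 cores, at 180 and 120 bases, and 2 SMAD boxes, at 219 and 128 bases. The Axin2 window holds no core and 1 SMAD box, at 117 bases. Among the 14 windows available for 9 of the 10 members, 3 windows of 3 members (Sp5, Lef1 and Dkk1) held a TCF/LEF core, against 13.8% of all 32851 RefSeq windows of that length. The SMAD box stood in 5 windows of 3 members (Wnt3, Axin2 and Lef1), against 42.2% of all windows. These are matches of letters and not measured binding sites.

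Levels are FPKM in the Pml table and RPKM in the others, both scaled for gene length and library size, and no test was made between tables. The sequencing depth of the RPKM tables, recovered from their low values, was 31200000 to 48500000 reads per library, and that of the Pml table is unknown. In the Pml KO libraries Pml itself was at 32.8 ± 1.04 FPKM against 47.5 ± 3.39 in wild type (SD, n = 2 each). In the Trim33 table Trim33 was at 20.1 and 23.5 RPKM in wild type and 2.53 and 2.79 in the knockout with activin A. With SB431542 it went against the labels: 2.94 and 2.44 RPKM in the libraries labelled wild type and 18.3 and 24.6 in those labelled knockout. The genotype of the SB431542 libraries is therefore named below as a label only, and no direction of a Trim33 effect is drawn from them. The Y-linked gene Eif2s3y fell from 18.4 ± 3.11 to 0.927 ± 0.247 FPKM in the Pml knockout (n = 2 each). With activin A it was at 38.3 and 41.0 RPKM in wild type and 0 and 0.0651 in the Trim33 knockout, and with SB431542 at 0.0647 and 0.143 in the libraries labelled wild type and 38.5 and 40.0 in those labelled knockout. Another difference between the cell lines and the knockout thus cannot be told apart. Pou5f1, a defining gene of ES cells, was expressed in every group, with means of 495 to 1597 FPKM or RPKM.

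Of the 10 members, 8 reached a level of 1 in at least 2 libraries of each table and were tested with limma on log2(level + 1). Nkd1 and Dkk1 met that filter in no table and are given as levels, with the fit that has no filter where it made a call. A member is said to rise or fall where its adjusted p was below 0.05 over all genes of the table. In the Pml knockout 3 of the 8 rose and 2 fell, where 35.5% of all 11648 genes tested were called. With arsenite 3 rose and 2 fell, where 67.7% of 12136 genes were called. In the Trim33 knockout with activin A 1 rose and 2 fell, where 9.43% of 11914 genes were called. Between the libraries labelled knockout and wild type with SB431542, 2 were higher and 1 lower, where 9.56% were called. Activin A against SB431542, taken as the mean over both genotype labels, gave 1 higher member and 0 lower, where 0.109% of genes were called. With arsenite the share of members called was thus no higher than that of genes at large. The difference between the effects of the genotype label under the 2 treatments was itself called for 4 of the 8 (Axin2, Sp5, Lef1 and Sfrp1), where 26.3% of genes were. A member that is low in 1 group and passed the filter through the other had to differ, so these counts describe the tested members only. Of all calls with arsenite 60.1% were higher, a share that was 50.0% with median-ratio scaling and 49.0% with quantile normalization. The corresponding shares were 70.1% and, with quantile normalization, 57.9% for the Trim33 knockout with activin A, 31.5% and 41.7% for the labels with SB431542, and 61.5% and 49.5% for the difference of the label effects. No called member changed direction with either scaling. The number of genes called in the Trim33 table rested on single libraries: 1123 with activin A fell to between 185 and 355 without any 1 of the 4 activin A libraries, and 1139 with SB431542 fell to 673 without replicate 2 labelled knockout, 294 without replicate 1 labelled wild type and 514 without replicate 2 labelled wild type.

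**Figure D1:**
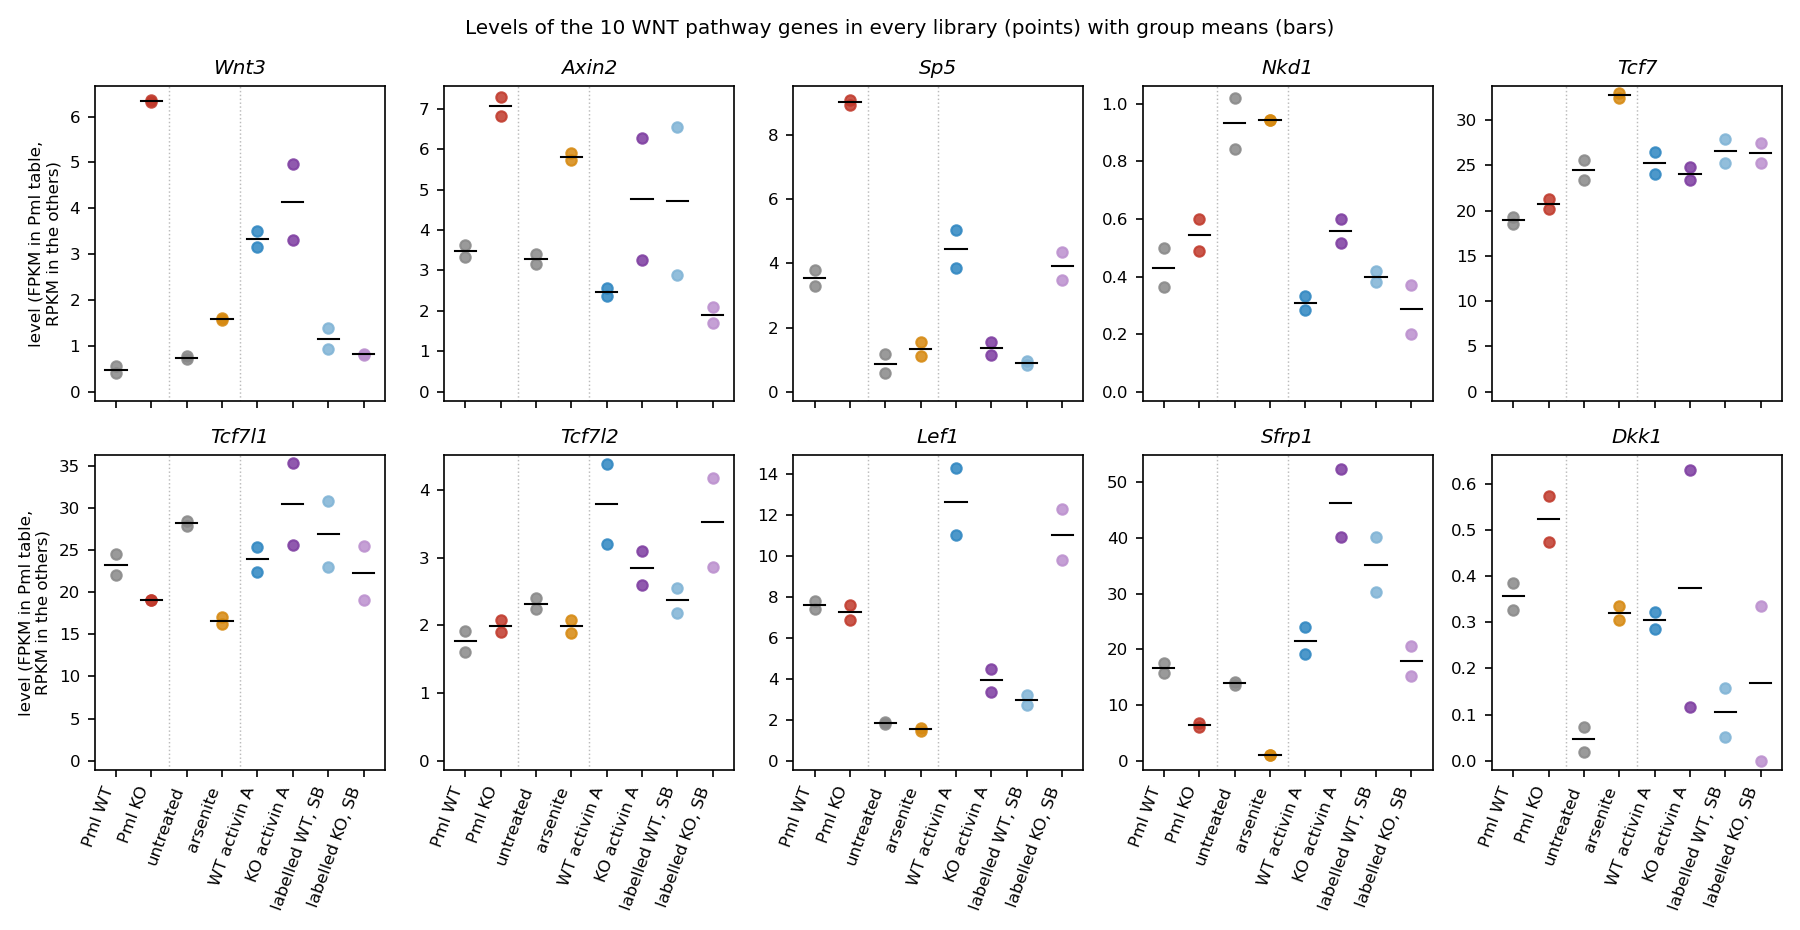
Level of each of the 10 genes in every library (points) with the group mean (bar), in FPKM for the Pml table and RPKM for the arsenite and Trim33 tables, which dotted lines separate. Each panel has its own vertical axis from about 0; Wnt3 is at 6.37 and 6.31 in the Pml KO libraries, Sfrp1 at 0.953 and 1.07 after arsenite, and Nkd1 and Dkk1 reach at most 1.02 and 0.631.

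The ligand gene Wnt3 was the member that rose most in the Pml knockout and the only one called between activin A and SB431542. The wild-type libraries had 0.550 and 0.404 FPKM and the Pml KO libraries 6.37 and 6.31. Both knockout libraries lay far above both wild-type libraries, a 13.3-fold ratio of means. The log2 fold change was 2.31 ± 0.11 (SE, limma adjusted p = 1.69e-06), ranked 59 by size among 11648 genes. Since wild-type cells were below 1 FPKM, Wnt3 passed the filter through the knockout libraries alone. In bulk RNA such a difference in RNA per cell and in the number of cells of a kind cannot be told apart.

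With arsenite Wnt3 stayed at a lower level but also rose. It was at 0.701 and 0.785 RPKM in untreated cells and 1.56 and 1.61 after arsenite, with no overlap (2.13-fold, log2 fold change 0.57 ± 0.10, limma adjusted p = 0.00169). Here too it passed the filter through the treated libraries alone.

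In the Trim33 table Wnt3 separated by treatment. With activin A it was at 3.16 and 3.51 RPKM in wild type and 3.31 and 4.97 in the Trim33 knockout. With SB431542 it was at 0.927 and 1.38 RPKM in the libraries labelled wild type and at 0.823 and 0.804 in those labelled knockout. All 4 activin A libraries thus lay above all 4 SB431542 libraries, with means of 3.74 and 0.983 RPKM and a ratio of 3.80. The mean log2 difference was 1.25 ± 0.14 (limma adjusted p = 0.0159), ranked 13 by size of 11914 genes. Of the SB431542 libraries only the one at 1.38 RPKM reached a level of 1. Here too Wnt3 thus passed the filter through the group where it was high, the activin A libraries. The call was sensitive to the number of libraries: the difference stayed between 1.13 and 1.28 but the adjusted p was 0.0578 without the knockout activin A replicate 2, 0.0960 and 0.102 without wild-type activin A replicates 1 and 2, 0.0536 and 0.0553 without SB431542 replicates 1 and 2 labelled knockout, and 0.0782 without SB431542 replicate 1 labelled wild type. It was 0.132 with no filter on low values.

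Because the SB431542 labels are in doubt, the treatment was also compared in each of the 4 pairs of groups, an alternative chosen after the data were seen. Wnt3 was higher with activin A in all 4. The log2 difference was 1.48 for the knockout against the libraries labelled knockout (limma adjusted p = 0.00451) and 1.02 for wild type against those labelled wild type (adjusted p = 0.0166). Trim33 itself also differed in these pairs of like label, by -2.60 and 2.62. Across the labels, where Trim33 was alike, the Wnt3 difference was 1.24 for the knockout against the libraries labelled wild type (adjusted p = 0.213). For wild type against those labelled knockout the Wnt3 difference was 1.26 (adjusted p = 0.159). The standard error for Wnt3 was 0.20 in each pair. By genotype Wnt3 was not called, either with activin A (0.23 ± 0.20, adjusted p = 0.533) or between the labels with SB431542 (-0.24 ± 0.20, adjusted p = 0.517). The other 7 tested members had an adjusted p of 1.00 between the treatments, with differences of -0.10 to 0.32. Tcf7 was the lowest of these and Sfrp1 the highest (0.32 ± 0.15).

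Other cell type markers moved with Wnt3 in part of these comparisons. Between activin A and SB431542, where Wnt3 was called, no tested marker of any list was called, and 0.109% of all genes were. In the Pml knockout all 9 tested trophectoderm markers of 10 rose (summed level 67.0 to 72.0 FPKM in wild type, 747 to 759 in the knockout). Over all genes 16.6% were called higher there and 18.9% lower. Markers low in wild type, such as Cdx2, passed the filter through the knockout libraries. Of 7 tested fibroblast markers of 10, 6 rose and 1 fell (18.0 to 19.5 against 316 to 336 FPKM), with Lum and Postn at 0 in both wild-type libraries and Dcn at 0 in 1 library of each genotype. Of 3 tested primitive streak markers of 8, 2 rose (6.45 to 6.52 against 18.8 to 18.9 FPKM), T and Eomes, and Eomes also stands in the trophectoderm list. Of 5 tested primitive endoderm markers of 8, 1 rose and 3 fell (sum 21.7 to 23.5 FPKM in wild type, 24.9 to 25.2 in the knockout). Of 2 tested neuroectoderm markers of 5, 1 rose and 1 fell (sum 7.34 to 7.77 FPKM in wild type, 15.4 to 16.9 in the knockout). Of 8 tested pluripotency markers 0 rose and 3 fell, Esrrb, Utf1 and Tdgf1 (sum 8074 to 8101 FPKM in wild type, 7693 to 7948 in the knockout). With arsenite the primitive streak sum was 13.2 to 14.7 RPKM against 4.41 to 4.57 untreated. Of its 8 markers only Eomes was tested, and it rose, while T was at 0.927 RPKM against 0.523. The trophectoderm sum, which also holds Eomes, was 171 to 174 against 96.4 to 98.0 (of 8 tested 7 rose, 1 fell). The fibroblast sum was 55.5 to 57.2 against 16.8 to 17.6 (of 4 tested 3 rose, 1 fell). The primitive endoderm sum was 36.5 to 39.6 against 23.1 to 23.3 (of 6 tested 4 rose, 1 fell). Col4a1 alone held 16.3 and 17.6 RPKM of it against 5.90 and 6.68. The neuroectoderm sum was 8.66 to 9.09 against 13.6 to 13.8 (of 3 tested 1 rose, 2 fell). The fibroblast gene Lum was at 0 in all 4 libraries of that table and Dcn in 3. The pluripotency sum was 2723 to 2837 RPKM against 5178 to 5248, with 7 of 8 pluripotency markers falling and 1 rising. Over all genes 40.7% were called higher with arsenite and 27.0% lower. The part of these markers in the changes of Wnt3 and the other members was not tested.

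Axin2 and Sp5, which encode feedback regulators of the pathway, rose together in the Pml knockout and parted in the Trim33 table. Axin2 went from 3.62 and 3.32 FPKM in wild type to 6.83 and 7.28 in the Pml knockout, a ratio of means of 2.03. Sp5 went from 3.79 and 3.29 FPKM to 8.95 and 9.11, a ratio of 2.55. For both genes the knockout libraries lay above the wild-type libraries. The log2 fold changes were 0.85 ± 0.09 for Axin2 and 1.15 ± 0.09 for Sp5 (limma adjusted p = 2.27e-04 and 4.35e-05).

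With arsenite Axin2 rose, from 3.41 and 3.17 RPKM to 5.91 and 5.73 (1.77-fold, log2 fold change 0.67 ± 0.08, limma adjusted p = 2.22e-04). Sp5 was low and spread: 1.17 and 0.578 RPKM untreated and 1.56 and 1.11 after arsenite, so that the groups overlapped. Its log2 difference was 0.33 ± 0.17 (adjusted p = 0.121). Without the first untreated library, which had the higher Sp5 level, the difference was 0.56 and passed. That fit rested on 1 untreated library, at 0.578 RPKM, and Sp5 then met the filter through the arsenite libraries alone.

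Sp5 fell in the Trim33 knockout with activin A. It was at 3.86 and 5.04 RPKM in wild type and 1.15 and 1.55 in the knockout, 3.29-fold lower in the mean, with no overlap. The log2 fold change was -1.21 ± 0.19 (limma adjusted p = 0.00792). The call was lost without knockout replicate 1 (-1.09, adjusted p = 0.0711) and without wild-type replicate 2 (-1.05, adjusted p = 0.0803). With SB431542 Sp5 was at 0.942 and 0.820 RPKM in the libraries labelled wild type and at 4.37 and 3.48 in those labelled knockout. Those labelled knockout were thus the higher ones, by 1.38 ± 0.19 (adjusted p = 0.00437), as they were for Trim33 itself.

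Axin2 did not follow Sp5 there. With activin A it was at 2.56 and 2.36 RPKM in wild type and at 6.27 and 3.25 in the Trim33 knockout. With SB431542 it was at 6.56 and 2.89 RPKM in the libraries labelled wild type and 1.70 and 2.10 in those labelled knockout. The groups did not overlap under either treatment, but the libraries of the higher group differed widely from each other, and the differences of 0.69 ± 0.33 and -0.91 ± 0.33 were not called (limma adjusted p = 0.236 and 0.129). Without SB431542 replicate 2 labelled wild type the second difference was -1.39 and passed (adjusted p = 0.0488).

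The pair of libraries with high Axin2, both of them replicate 1, also stood apart in some of the marker lists but not in all. The summed level of the 8 primitive endoderm markers was 37.4 RPKM in the knockout activin A replicate 1 and 34.5 in SB431542 replicate 1 labelled wild type, against 13.8 to 18.9 in the other 6 libraries of the table. Much of that sum was the collagen gene Col4a1 alone, at 23.5 and 22.0 RPKM in the pair against 5.62 to 10.2 in the other 6. The sum of the 10 fibroblast markers was 184 and 167 RPKM in that pair against 74.9 to 114, and that of the 10 trophectoderm markers 279 and 270 against 152 to 206. No primitive endoderm or trophectoderm marker was at 0 in any library of the table. The primitive streak sum was 8.95 and 5.91 RPKM in the pair, within the 5.16 to 16.1 of the other 6 libraries. Pluripotency markers summed to 3673 and 3512 RPKM, also within the 3255 to 4430 of the others. Neuroectoderm markers summed to 13.1 and 12.2 RPKM against 13.1 to 20.8. The part of these markers in the Axin2 levels was not tested.

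Nkd1, the third feedback target, stayed below the level required for a test. It ranged from 0.364 to 0.599 FPKM in the Pml table, where the genotypes overlapped, and from 0.844 to 1.02 RPKM in the arsenite table, where 1.02 in an untreated library was the one value above 1. In the Trim33 table it was at 0.284 and 0.331 RPKM in wild type and 0.601 and 0.516 in the knockout with activin A. With SB431542 it was at 0.380 and 0.418 RPKM in the libraries labelled wild type and 0.372 and 0.200 in those labelled knockout.

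**Figure D2:**
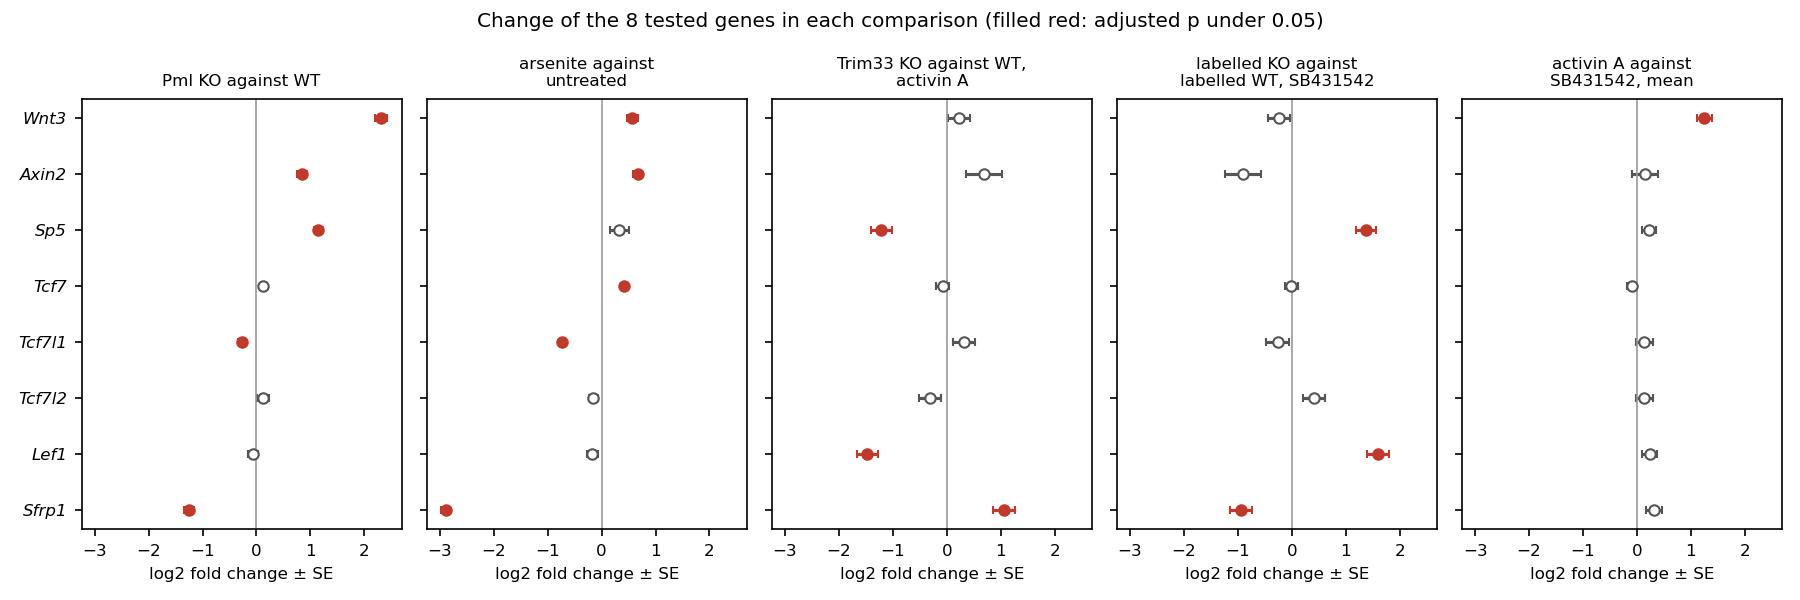
Log2 fold change ± SE of the 8 tested genes in 5 comparisons (limma on log2(level + 1)); filled red points have an adjusted p below 0.05, and the SB431542 panel uses the genotype labels as given. Sfrp1 reaches -2.89 with arsenite, Wnt3 2.31 in the Pml knockout, and Wnt3 alone is filled for activin A against SB431542; Sp5, Lef1 and Sfrp1 are filled on opposite sides of 0 in the panels for the Trim33 labels.

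The TCF/LEF factors were dominated by Tcf7 and Tcf7l1 in every group. TCF7 (also called TCF1) is an activator in ES cells and TCF7L1 (also called TCF3) the main repressor. In wild-type cells of the Pml table Tcf7 made up 36.7% of the summed level of the 4 genes, Tcf7l1 45.1%, Lef1 14.8% and Tcf7l2 3.44%. The sum of the 4 genes was 51.6 ± 2.41 and 49.1 ± 1.40 FPKM in Pml wild type and knockout, 56.8 ± 1.26 and 52.9 ± 0.954 RPKM untreated and after arsenite, and 58.8 ± 3.56 to 65.6 ± 3.48 RPKM over the groups of the Trim33 table (SD, n = 2 each).

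Arsenite moved Tcf7 and Tcf7l1 in opposite directions. Tcf7 was at 23.4 and 25.5 RPKM untreated and 32.5 and 33.0 after arsenite (log2 fold change 0.41 ± 0.05, limma adjusted p = 3.63e-04). Tcf7l1 was at 28.5 and 27.9 RPKM untreated and 16.2 and 17.1 after arsenite (-0.73 ± 0.05, adjusted p = 1.44e-05). Neither gene's groups overlapped. The order of the pair turned over: Tcf7l1 held 49.6% of the summed level and Tcf7 43.0% in untreated cells, and 31.4% and 61.9% after arsenite.

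The same pair shifted less in the Pml knockout. Tcf7l1 went from 24.5 and 22.0 FPKM in wild type to 19.1 in each knockout library, and fell by 0.27 on the log2 scale (SE 0.07, limma adjusted p = 0.0176). That call was lost without wild-type replicate 1 (-0.20, adjusted p = 0.0689) and with no filter on low values (adjusted p = 0.0667). Tcf7 had 19.3 and 18.5 FPKM in wild-type libraries against 20.2 and 21.3 (0.13 ± 0.06, adjusted p = 0.162). Its share of the sum was 36.7% and 42.3%, while that of Tcf7l1 was 45.1% and 38.9%.

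Lef1, which encodes an activating factor, was the TCF/LEF gene that differed in the Trim33 table. With activin A it was at 14.3 and 11.0 RPKM in wild type and 4.45 and 3.37 in the Trim33 knockout, 3.23-fold lower in the mean. The log2 fold change was -1.47 ± 0.20 (limma adjusted p = 0.00390). With SB431542 it was at 2.72 and 3.21 RPKM in the libraries labelled wild type and 12.3 and 9.78 in those labelled knockout, a difference of 1.60 ± 0.20 (adjusted p = 0.00276). The groups did not overlap under either treatment. Lef1 made up 19.2% of the TCF/LEF sum in wild type with activin A and 6.36% in the knockout, and 5.06% and 17.4% in the libraries labelled wild type and knockout with SB431542.

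In the other tables Lef1 was not called. Its wild-type libraries had 7.81 and 7.41 FPKM and the Pml KO libraries 6.88 and 7.59, which overlapped (-0.07 ± 0.09, limma adjusted p = 0.594). It was at 1.80 and 1.88 RPKM untreated and 1.46 and 1.59 after arsenite (-0.17 ± 0.10, adjusted p = 0.151). With quantile normalization the arsenite difference was -0.42 and passed (adjusted p = 0.00607), and it also passed without the intensity trend (adjusted p = 0.0431).

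Tcf7l2, the least abundant of the 4 genes in most groups, was called in no comparison. It ranged from 1.61 to 2.09 FPKM in the Pml table and was at 2.24 and 2.41 RPKM untreated and 2.08 and 1.89 after arsenite (-0.15 ± 0.09, limma adjusted p = 0.186). With quantile normalization that difference was -0.38 and passed (adjusted p = 0.00894). In the Trim33 table it was at 4.38 and 3.20 RPKM in wild type and 2.60 and 3.10 in the knockout with activin A (-0.31 ± 0.21, adjusted p = 0.393). With SB431542 it was at 2.55 and 2.19 RPKM in the libraries labelled wild type and 4.18 and 2.87 in those labelled knockout (0.41 ± 0.21, adjusted p = 0.251).

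Tcf7 and Tcf7l1 were called in none of the Trim33 comparisons. Tcf7 lay between 23.3 and 27.9 RPKM in all 8 libraries. Tcf7l1 varied more within groups: 25.4 and 22.4 RPKM in wild type and 35.3 and 25.6 in the knockout with activin A (0.32 ± 0.21, limma adjusted p = 0.375). It was at 30.9 and 23.0 RPKM in the SB431542 libraries labelled wild type and 25.5 and 19.0 in those labelled knockout (-0.26, adjusted p = 0.483). Replicate 1 was the higher library for Tcf7l1 in all 4 groups of the table.

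**Figure D3:**
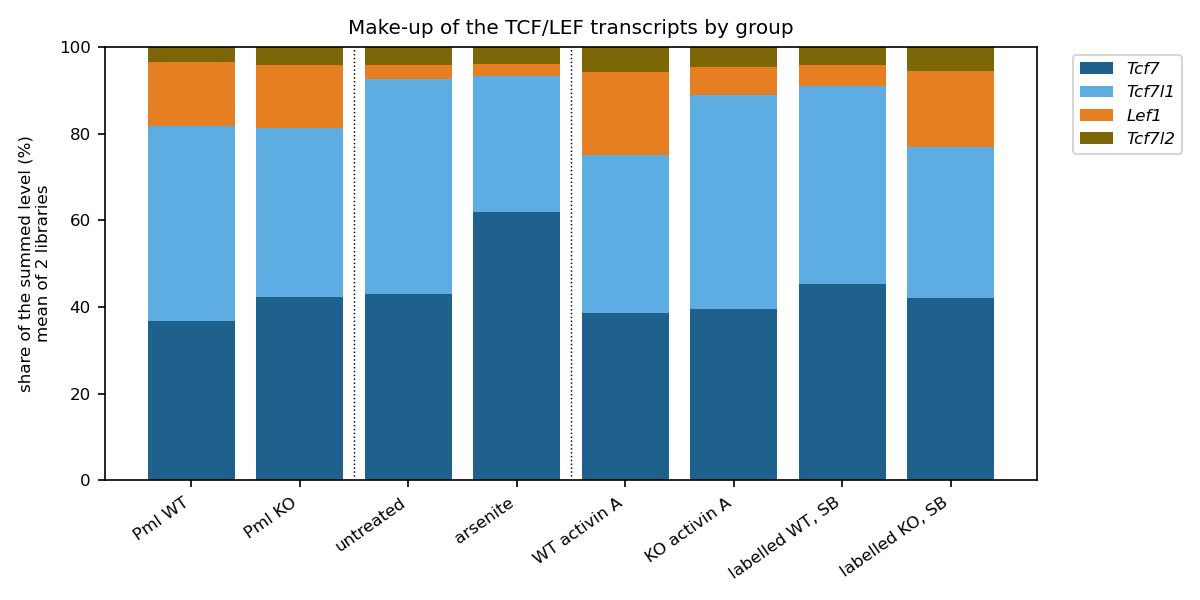
Share of each TCF/LEF gene in the summed level of the 4 genes (%), mean of 2 libraries per group, from FPKM in the Pml table and RPKM in the others. Tcf7 takes 61.9% after arsenite against 43.0% untreated, and the Lef1 segment is 19.2% in wild type and 6.36% in the Trim33 knockout with activin A.

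Sfrp1, which encodes a secreted Frizzled-related protein that binds WNT ligands, was called in 4 of the 5 comparisons shown in the plot of changes. In the Pml table it went from 17.6 and 15.8 FPKM to 6.05 and 6.77 in the knockout, 2.60-fold lower in the mean. The log2 fold change was -1.25 ± 0.09 (limma adjusted p = 1.83e-05). With arsenite it went from 14.1 and 13.6 RPKM to 0.953 and 1.07, 13.7-fold lower in the mean, with a log2 fold change of -2.89 ± 0.08 (adjusted p = 3.34e-07). It ranked 9 by size among 12136 genes tested. In both tables the groups lay far apart.

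In the Trim33 knockout Sfrp1 rose. With activin A it was at 19.2 and 23.9 RPKM in wild type and 40.3 and 52.3 in the knockout, a ratio of 2.15. The log2 fold change was 1.06 ± 0.21 (limma adjusted p = 0.0177). The call was lost without knockout replicate 2 (0.88, adjusted p = 0.0963), wild-type replicate 1 (0.91, adjusted p = 0.114) or wild-type replicate 2 (1.21, adjusted p = 0.0708). With SB431542 it was at 30.3 and 40.2 RPKM in the libraries labelled wild type and 15.2 and 20.6 in those labelled knockout, a difference of -0.94 ± 0.21 (adjusted p = 0.0269). That call was lost without replicate 1 labelled knockout (-0.73, adjusted p = 0.0914), without replicate 2 labelled wild type (-0.74, adjusted p = 0.123) and with no filter on low values (adjusted p = 0.0666). Under both treatments the 2 groups did not overlap.

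Dkk1, which encodes a secreted inhibitor of the LRP co-receptors, stayed below the level required for a test. The Pml table had 0.386 and 0.327 FPKM for wild type and 0.474 and 0.575 for the knockout, which did not overlap. In the arsenite table it was at 0.0737 and 0.0187 RPKM untreated and 0.306 and 0.336 after treatment, also apart. With no filter on low values it was called there, the only call of Dkk1 or Nkd1 in any of the 6 comparisons fitted that way (log2 fold change 0.34 ± 0.04, limma adjusted p = 0.00518). In the untreated libraries 3 reads in a gene of 1 kb would be 0.0619 and 0.0627 RPKM, so that call rested on a baseline of few reads. In the Trim33 table Dkk1 ranged from 0 to 0.631 RPKM. The 0 was in SB431542 replicate 2 labelled knockout, where 3 reads in a gene of 1 kb would be 0.0894 RPKM, so a low level was not detectable at this depth.

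Ordered by level in wild-type cells of the Pml table, Tcf7l1 (22.0 to 24.5 FPKM) stood above Tcf7 (18.5 to 19.3) and Sfrp1 (15.8 to 17.6), followed by Lef1 (7.41 to 7.81). Axin2 (3.32 to 3.62 FPKM) and Sp5 (3.29 to 3.79) were neighbours whose libraries overlapped. Tcf7l2 (1.61 to 1.92 FPKM) came next, and Wnt3 (0.404 to 0.550), Nkd1 (0.364 to 0.498) and Dkk1 (0.327 to 0.386) overlapped at the bottom. In the Pml knockout Sp5 and Axin2 stood above Sfrp1, and Wnt3 was at the level of Sfrp1 (6.05 to 6.77 FPKM). After arsenite Sfrp1 stood below Tcf7l2. After table means were subtracted, Sp5 and Lef1 had a Pearson r of 0.76 over the 16 libraries, Tcf7l2 and Lef1 0.77, and Tcf7l1 and Sfrp1 0.77. Tcf7 went against Tcf7l1 (r = -0.87) and Sfrp1 (-0.78), and Axin2 against Lef1 (-0.62), while Axin2 and Sp5 had r = -0.21. These values describe 16 libraries that share tables, treatments and cell lines.

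The genes whose levels over the 16 libraries were most like those of Axin2, among 10868 genes, were Npnt (r = 0.99), Col4a1 (0.98), Itgb1, Cbfb and Col4a2 (0.96 each). Npnt encodes an extracellular matrix ligand of integrins, Itgb1 an integrin subunit, and Col4a1 and Col4a2 chains of basement membrane collagen. Col4a1 also stands in the list of primitive endoderm markers. Npnt was at 3.79 RPKM in the knockout activin A replicate 1 and 3.56 in SB431542 replicate 1 labelled wild type, against 0.658 to 1.68 in the other 6 libraries of that table. Those most like Sfrp1 were the clock gene Per1 and the RNA-binding protein gene Taf15 (0.96 each), then Zfp710, Pald1 and Zfyve28 (0.95 each). Per1 was at 13.6 and 12.6 RPKM in untreated cells and 7.10 and 7.92 after arsenite, a smaller change than that of Sfrp1.

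Beyond the members, 114 other genes of the pathway were taken in 7 lists by role. In the Pml knockout 78 were tested, of which 26 rose and 14 fell, where 16.6% of all genes tested were called higher and 18.9% lower. Those counts rested on the knockout libraries and on low genes: 15 rose and 11 fell without knockout replicate 1, 14 and 12 without knockout replicate 2, and 12 and 14 with the filter at a level of 5. The lists were drawn up with earlier results of these data known. Of 11 tested ligand and secretion genes of 24, 9 rose and 0 fell, with a median log2 fold change of 0.96 against -0.02 over all genes. With 1 knockout library left out, whichever it was, 4 were tested and 2 rose. Wls, which encodes the carrier that takes WNT proteins to the cell surface, was at 0.928 FPKM in wild type and 18.5 in the knockout (3.33 ± 0.11, limma adjusted p = 2.26e-07). Wnt5a went from 0.281 to 4.73 FPKM and Wnt4 from 0.263 to 4.62 (2.16 each, adjusted p = 3.64e-06 and 3.69e-06). These 3 genes, like Wnt3, passed the filter through the knockout libraries, so the count of the list gives no direction for it.

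Of 8 other WNT target genes tested in the Pml knockout, 6 rose and 1 fell (median 0.70). Of 6 tested without knockout replicate 1 or 2, 4 rose, and without wild-type replicate 2 it was 4 of 8. Cdx2 and Cd44 passed the filter through the knockout libraries. Cdx2, also a trophectoderm gene, went from 0.711 to 13.4 FPKM (3.07 ± 0.10, limma adjusted p = 2.28e-07) and T, a primitive streak gene, from 1.54 to 11.2 (2.27 ± 0.09, adjusted p = 6.59e-07). The adhesion receptor gene Cd44 rose by 1.96 ± 0.14. Among the other inhibitors 5 of 10 rose and 1 fell: Igfbp4, which encodes an insulin-like growth factor binding protein, went from 3.67 to 36.1 FPKM (2.99 ± 0.07), and Notum, which encodes an enzyme that inactivates WNT proteins, fell from 28.8 to 18.0. Receptors were mixed, with 5 of 14 higher and 2 lower, Ryk at 0.48 and Fzd5 at -0.48.

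Of 16 genes of cytoplasmic transduction and the destruction complex 0 rose in the Pml knockout and 3 fell (Csnk1e, Btrc and Dvl2, by 0.36, 0.33 and 0.20), a share near that of all genes called lower. With median-ratio scaling 2 rose and 3 fell, with quantile normalization 2 and 2, and with no filter 1 and 0. Of 11 alternatives Dvl2 lost its call in 6, Btrc in 3 and Csnk1e in 1. Of 14 nuclear cofactors 1 rose and 6 fell, led by the Groucho-related corepressor gene Aes (-0.62 ± 0.05, limma adjusted p = 3.67e-05). Ctnnb1, the beta-catenin gene, which was chosen after its values were seen, had means of 293 FPKM in wild type and 294 in the knockout. Of the 5 pluripotency genes that TCF7L1 represses, Esrrb alone was called (-0.18 ± 0.05), and it lost that call in 6 of 11 alternatives: with no filter, with quantile normalization, without the trend and without wild-type replicate 1 or either knockout library (adjusted p from 0.0692 to 0.126).

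With arsenite 76 of the 114 were tested, of which 32 rose and 18 fell (27 and 20 with median-ratio scaling, 25 and 21 with quantile normalization). The share called was no higher than the 67.7% of all genes, of which 40.7% were called higher and 27.0% lower. Without arsenite replicate 1 or 2 the counts were 23 and 16, and 22 and 18. Of 7 ligand and secretion genes 6 rose and 1 fell (median 1.32 against 0.08 over all genes). Wnt7b went from 1.07 to 10.4 RPKM (2.46 ± 0.08, limma adjusted p = 5.70e-07), Wnt6 from 1.39 to 10.4 (2.31 ± 0.21) and Wls from 8.18 to 25.3 (1.52 ± 0.09). The receptor gene Fzd5 fell from 37.1 to 10.1 RPKM (-1.78 ± 0.05, adjusted p = 3.55e-07), while 7 of 16 receptor genes rose and 3 fell. The cytoplasmic list had 8 of 18 higher and 3 lower, with the Dishevelled gene Dvl3 at 1.00 ± 0.08.

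Pluripotency genes repressed by TCF7L1 fell with arsenite, in the cells in which Tcf7l1 also fell. Of the 5, 4 fell and 1, Tfcp2l1, rose (from 59.5 to 72.9 RPKM), and it is named for being that exception. Nanog went from 271 to 48.3 RPKM (-2.47 ± 0.06, limma adjusted p = 1.91e-07), Klf2 from 307 to 65.9 (-2.21 ± 0.07), Nr5a2 from 17.4 to 7.79 and Esrrb from 234 to 154. Of 5 other WNT targets 2 rose, Cdx1 (0.46) and Ascl2 (0.43), and 1 fell, the cyclin gene Ccnd1 (-0.88 ± 0.08). With quantile normalization 1 of these 5 rose and 2 fell.

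In the Trim33 knockout with activin A 79 of the 114 were tested, of which 3 rose and 6 fell. Ccnd1 fell from 98.4 to 49.9 RPKM (-0.96 ± 0.12, limma adjusted p = 0.00258), in the direction of Sp5 and Lef1. Cdx4, a caudal homeobox gene, went from 1.50 to 0.307 RPKM (-0.94 ± 0.18, limma adjusted p = 0.0158). It was below 1 in this knockout and passed the filter through groups where it was higher, so no direction is drawn from it. Over all genes 6.61% were called higher and 2.82% lower. The receptor gene Fzd7 fell from 26.9 to 11.3 RPKM (-1.19 ± 0.15). Porcn, which encodes the enzyme that lipidates WNT proteins, rose from 6.66 to 18.4 RPKM (1.33 ± 0.29), and the Groucho-related gene Tle6 from 2.26 to 7.66 (1.42 ± 0.22). These counts rested on single libraries: 0 rose and 3 fell without knockout replicate 1 and also without wild-type replicate 2, 2 rose and 2 fell without knockout replicate 2, and 1 rose and 2 fell without wild-type replicate 1. With the replicate block they were 8 and 8, and 8 and 6 with either of the SB431542 libraries labelled knockout left out. Of the genes named, Ccnd1 and Fzd7 kept their calls in the alternatives, while Cdx4 and Porcn lost theirs in 4 each and Tle6 in 2. Between the libraries labelled knockout and wild type with SB431542 5 were higher and 5 lower, where 3.01% of all genes were called higher and 6.55% lower. The sign was opposite to that with activin A for Ccnd1 (0.75), Cdx4 (0.88), Fzd7 (1.01), Porcn (-1.30) and Tle6 (-1.37). For activin A against SB431542 0 of the 79 were called by limma, with 8 at an unadjusted p under 0.05, and Wnt3 was the one member called. The receptor gene Fzd10 lay just outside (0.88 ± 0.12, adjusted p = 0.0503) and was called with the pseudocount of 0.1, the filter at 5, median-ratio scaling and no trend (adjusted p of 0.0417 with the last). Lgr4, another receptor gene, was called with the replicate block (0.67, adjusted p = 0.0280, against 0.0763). Both were chosen after their values were seen.

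**Figure D4:**
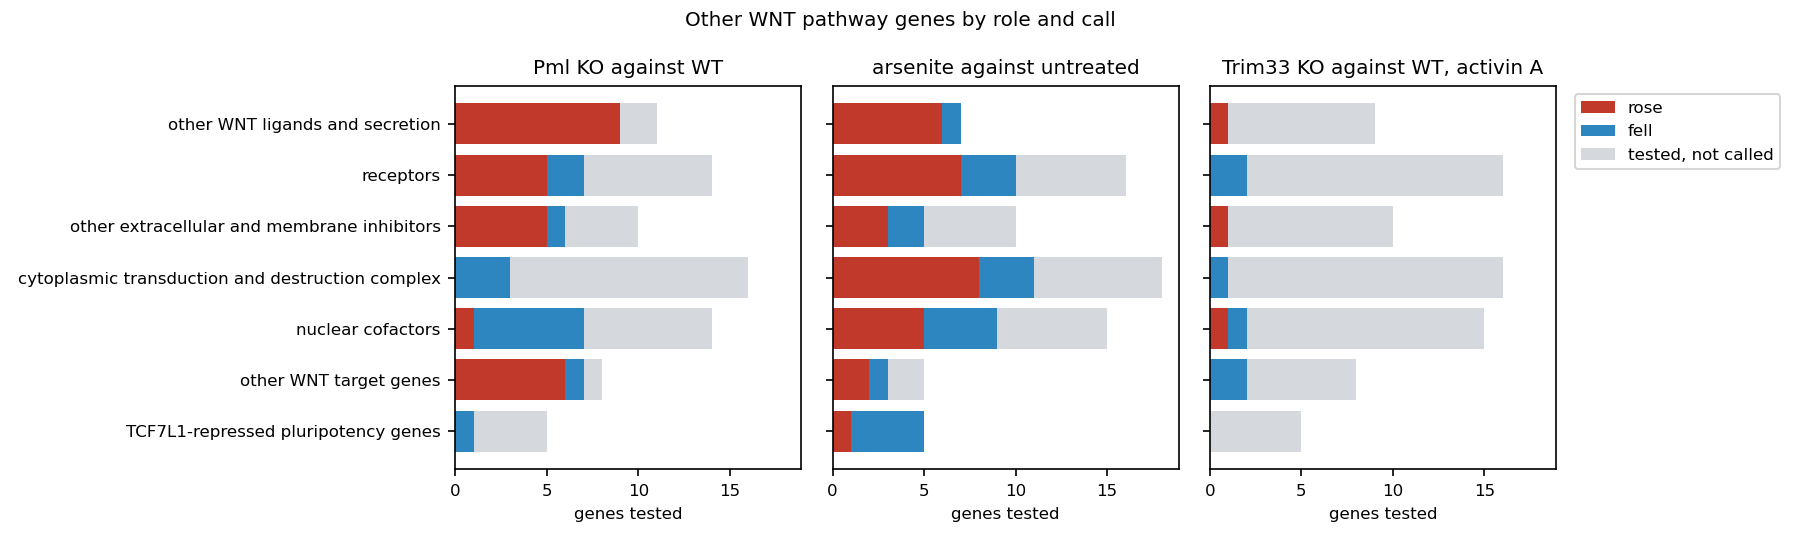
Number of tested genes in each of 7 WNT pathway lists, members left out, that rose (red), fell (blue) or were not called (grey) by limma at an adjusted p below 0.05. In the Pml knockout 9 of 11 ligand and secretion genes rose and 6 of 14 nuclear cofactors fell, with arsenite 4 of 5 TCF7L1-repressed genes fell, and in the Trim33 knockout with activin A most bars are grey.

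The members lie on 6 chromosomes of GRCm38 (mm10) in the GENCODE M21 annotation. Wnt3 is at chr11:103774150-103817957, Axin2 at chr11:108920349-108950783 and Sp5 at chr2:70474923-70477729, all on the plus strand. Lef1 is at chr3:131110471-131224356 and Sfrp1 at chr8:23411502-23449632 on the plus strand, with Nkd1 at chr8:88521354-88594884 and Tcf7l2 at chr19:55741820-55933654. On the minus strand Tcf7 is at chr11:52252371-52283014, Tcf7l1 at chr6:72626378-72789254 and Dkk1 at chr19:30545863-30549665. Exons of Axin2, Tcf7l1 and Lef1 overlap an antisense gene on the other strand (Gm11670, Gm15401 and Gm43352). No source used here says whether reads were counted by strand, so those of the antisense genes and of these 3 members cannot be told apart.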

How the data were processed

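RNA was sequenced from 16 libraries of mouse ES cells (Illumina TruSeq libraries from total RNA, per the labels). Per the submitters' processing notes the genome build was mm10, and the tools were featureCounts 2.0.1, Bowtie2 2.3.3, DESeq2, FastQC 0.11.5 and SAMtools 1.9, with no role given. The authors deposited FPKM values for the Pml table and RPKM values for the arsenite table, under those names. The Trim33 table names no unit, and its deposited values are taken as RPKM because value times length gave whole reads in single-exon genes. Of values under 20 reads, 91.8% to 96.9% per library were whole within 0.05 reads in the 2 RPKM tables (4073 single-exon genes), which gave the depth. Column names gave the sample of each column, and no other column held values. The untreated columns carry another letter than the titles and were matched as a group. Names turned into dates (27 per file) were left out.

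Levels were tested as log2(value + 1), which understates the change of low genes, with limma 3.58.1 in R 4.3.3 (lmFit and eBayes with trend; two-sided tests; Benjamini-Hochberg adjustment over the genes that reached 1 in 2 or more libraries). A fit was made per table, with 2 residual degrees of freedom for Pml, 2 for arsenite and 4 for the 4 group means of Trim33. Ratios are ratios of group means. The fits were tested on simulated data. Members, lists and tests were chosen with earlier results of these data known. Named wider genes are, per list and comparison, up to 4 called genes with the smallest p whose groups do not overlap, and the 5 genes most correlated with Axin2 and with Sfrp1. Alternatives were a pseudocount of 0.1, no filter, a filter at 5, median-ratio scaling, quantile normalization, no trend, the replicate number as a block, each treatment's libraries alone, and each library left out.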

Additional observations from a re-analysis of the deposited data

Results flagged for a closer look

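For 4 members the effect of the Trim33 genotype label differed between activin A and SB431542 by an interaction term in limma. The label effect with activin A minus that with SB431542, on the log2(RPKM + 1) scale, was -3.07 ± 0.28 for Lef1 (SE, adjusted p = 2.02e-04) and -2.59 ± 0.27 for Sp5 (adjusted p = 4.06e-04). It was 2.00 ± 0.29 for Sfrp1 (adjusted p = 0.00195) and 1.59 ± 0.47 for Axin2 (adjusted p = 0.0370). Such differences were called for 26.3% of the genes tested. Trim33 itself also differed, by -5.23 ± 0.25, since its level went against the labels of the SB431542 libraries. Lef1 and Sp5 had the sign of Trim33, and Sfrp1 and Axin2 the opposite one. With the labels in doubt, no change of a genotype effect by the treatment is drawn from this term. The Axin2 value lost its call with no filter, with quantile normalization, and without each of 6 libraries, with adjusted p from 0.0581 to 0.111 over these settings.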

How the results depend on the processing

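Of the members' values under the alternatives, 628 kept direction and side of the threshold, 27 lost a call, 10 gained one and 16 changed sign. Of the values of the named wider genes 968 kept both, 142 lost a call and 0 changed sign; 29 of 90 results lost a call in 1 or more alternatives. Calls of members lost or gained stand with the results, except those in the pairs of groups below and that Tcf7l1 and Tcf7l2 gained a call for the difference of the label effects, with the block (0.59, adjusted p = 0.0300) and without SB431542 replicate 2 labelled knockout (-0.93, adjusted p = 0.0451). With activin A the Trim33 knockout had 1123 genes called, 1852 with the activin A libraries alone and 185 to 1546 with 1 library left out (1 to 3 members). The labels with SB431542 had 1139, 608 with those libraries alone and 294 to 1036 with 1 left out. Activin A against SB431542 had 13, 8 with no filter, 23 with the replicate block and 7 to 16 with 1 left out; of the members 1 was called, 0 with no filter or with the filter at 5, under which Wnt3 is not tested, and 0 to 1 with 1 left out. The difference of the label effects had 3129 genes, 1853 to 3395 with 1 left out. The cause was not tested.

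In the 4 pairs of activin A and SB431542 groups, 1248 genes and 4 members were called for knockout against labelled knockout, 6 and 0 for knockout against labelled wild type, 5 and 0 for wild type against labelled knockout, and 1351 and 3 for wild type against labelled wild type. The pairs of like label also differed in Trim33, by -2.60 for knockout and 2.62 for wild type, and so carry more than the treatment. Across the labels Trim33 was alike. It was -0.01 for knockout against labelled wild type, and 20.1 and 23.5 RPKM in wild type against 18.3 and 24.6 in labelled knockout. Signs turned in the first pair for Sp5 (-1.06), Tcf7l2 (-0.22), Lef1 (-1.29) and Trim33 (-2.60), and in the second for Trim33 (-0.01). In the last pair they turned for Axin2 (-0.65), Tcf7l1 (-0.15), Sfrp1 (-0.68) and Pml (0.46).

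The other changes of sign were of values that were not called. With 1 library left out the ranges were -0.01 to 0.04 for Trim33 in the Pml knockout and -0.06 to 0.01 for Pml with arsenite (0.01 with quantile normalization). For the Trim33 knockout with activin A they were -0.01 to 0.46 for Wnt3 and -0.13 to 0.0027 for Tcf7, and for the labels with SB431542 -0.08 to 0.06 for Tcf7 (0.01 with median-ratio scaling). Between the treatments they were -0.09 to 0.39 for Axin2 and -0.09 to 0.11 for Trim33, and for the difference of the label effects -0.13 to 0.02 for Tcf7.

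The labels do not say that a replicate number marks a shared source. Replicate differences correlated at 0.02 between the Pml groups and at -0.14 to 0.60 between the Trim33 groups, over 0.1 in 4 of 6 pairs of groups but not in all, so the numbers were not taken as pairs. With the replicate block, besides the counts above, every member called without it kept its call. Crossed numbers in the SB431542 libraries (r = -0.14), tried after seeing the data, gave 989 genes and 3 members. No paired analysis was possible because the untreated columns carry no sample number in the arsenite table. The filter, not depth, kept Nkd1 and Dkk1 out of the tests. With 2 libraries a group limma's error leans on the spread of other genes.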
